A study of Mus musculus with 20 samples.

Results

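The genes described are 10 secreted components of the extracellular matrix: Eln, Fbn1, Fbln5 and Mfap4, whose products build elastic fibres, and Tnc, Postn, Thbs1, Thbs2, Vcan and Spp1, most of which encode matricellular proteins. They were taken by symbol, from a list drawn up with earlier results of these data known, and all 10 were found among the 51826 genes of the count table. RNA was sequenced from 14 lung metastases and 6 primary mouse sarcomas, at 20603620 to 36824370 counts per library. Each metastasis carried the number of 1 primary tumour, and the tumours that share a number are called a set: 4 metastases belonged to set 1 and 4 to set 2, 2 belonged to set 3 and 2 to set 6, and sets 4 and 5 had a single metastasis. The genotype label of every metastasis and every primary tumour was the same mixed background. No label gave an allele, a treatment, an age, a tumour site or a collection time. Metastasis 2-3 is the metastasis numbered 3 of set 2. No label said which samples came from separate animals, so each p-value reflects only how far these samples spread.

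Elastic fibres form when tropoelastin, the product of Eln, is laid onto microfibrils of fibrillin, guided by fibulins and cross-linked by lysyl oxidases. They give lung, skin and arteries their recoil, and in lung they are made mainly by mesenchymal cells. Matricellular proteins are secreted into the matrix but act mostly by binding receptors, proteases and growth factors. They are scarce in most resting adult tissue and become abundant in healing wounds and in the stroma of tumours.

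Libraries did not sort strictly by set. Of the 12 metastases with another of their set, 7 were nearest to a metastasis of their own set and 5 to one of another set, by chi-square over genes. Metastasis 2-4, for example, had a chi-square per degree of freedom of 61.6 against 6-1 and of 218 against the nearest of its own set. No pair of metastases within a set differed as little as sampling noise; the closest, 2-1 and 2-2, still had 9.7. Lung tissue was measured in the metastases: 15 of 17 lung epithelium markers rose, none fell, and their summed level ran from 519 to 15590 CPM (counts scaled to library size) in metastases and from 1.23 to 456 CPM in primary tumours. All 14 skeletal muscle markers had negative fold changes and 10 fell, with summed levels of 13.7 to 3777 CPM in metastases and 2.66 to 10280 CPM in primary tumours. Of all genes tested, 7.34% rose and 6.44% fell. Sets 4 and 6 went the other way in the mean log2 CPM of these muscle markers. It was -0.54 in metastasis 4-1 against -1.18 in its primary tumour. In 6-1 and 6-2 it was 1.38 and 1.44, against -2.54. Primary tumours 4 and 6 stood apart, with low levels of markers of several cell types. The mean log2 CPM of 9 fibroblast markers was 0.37 and 3.21 in them and 6.03 to 7.11 in the other 4 primary tumours. That of macrophage markers was -0.68 and 0.45, against 5.18 to 5.80 in the other 4. For endothelium markers it was -2.52 and -1.28, against 4.09 to 4.98, and for skeletal muscle markers -1.18 and -2.54, against 7.49 to 8.31.

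Promoters of the 4 called genes whose RefSeq entry starts no more than 64 bases from the annotated start are printed to show the sequence from which transcripts that moved in opposite directions begin. Each holds 250 bases before the start and 50 after it, 5′ to 3′ on the gene's strand, from RefSeq on GRCm38.p6. All 4 genes lie on the minus strand: Tnc at chr4:64046966-64047265, Fbln5 at chr12:101819070-101819369, Thbs2 at chr17:14694213-14694512 and Vcan at chr13:89742463-89742762. Capitals mark matches to TATAAA, the TATA box, on either strand.
Tnc: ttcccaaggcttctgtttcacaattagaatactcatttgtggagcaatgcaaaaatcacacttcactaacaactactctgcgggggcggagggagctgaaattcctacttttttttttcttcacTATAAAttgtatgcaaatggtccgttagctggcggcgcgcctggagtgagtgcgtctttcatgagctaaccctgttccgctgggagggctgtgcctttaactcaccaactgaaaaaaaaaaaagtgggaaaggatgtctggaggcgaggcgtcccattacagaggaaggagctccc
Fbln5: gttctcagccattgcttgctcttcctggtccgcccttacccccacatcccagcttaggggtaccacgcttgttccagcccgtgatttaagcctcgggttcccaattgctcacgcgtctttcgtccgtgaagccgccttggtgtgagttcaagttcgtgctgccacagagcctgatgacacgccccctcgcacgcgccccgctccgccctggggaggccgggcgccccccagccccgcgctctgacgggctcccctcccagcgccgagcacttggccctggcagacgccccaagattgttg
Thbs2: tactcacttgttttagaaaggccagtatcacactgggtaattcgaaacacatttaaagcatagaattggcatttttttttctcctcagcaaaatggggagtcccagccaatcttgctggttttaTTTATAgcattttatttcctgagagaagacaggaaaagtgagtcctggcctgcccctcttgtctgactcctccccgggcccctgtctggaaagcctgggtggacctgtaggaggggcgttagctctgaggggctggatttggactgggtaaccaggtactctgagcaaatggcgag
Vcan: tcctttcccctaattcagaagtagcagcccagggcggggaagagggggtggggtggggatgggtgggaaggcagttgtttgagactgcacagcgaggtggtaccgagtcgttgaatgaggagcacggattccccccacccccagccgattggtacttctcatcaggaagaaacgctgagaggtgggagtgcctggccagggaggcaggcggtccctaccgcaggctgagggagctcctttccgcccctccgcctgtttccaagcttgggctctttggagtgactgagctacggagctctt
Of the 10 genes, 7 had an entry, and 4 of those 7 held TATAAA, as did 13.6% of 32851 promoters of this length. The match lay at bases -126 to -121 in both Tnc, on the gene's strand, and Thbs2, on the other strand, at -26 to -21 in Postn and at -211 to -206 in Spp1. TGANTCA, an AP-1 motif that 7.81% of promoters held, and GGAATG, a TEAD motif that 14.7% held, matched in 0 of the 7 on either strand. The motifs do not overlap one another. These are matches of letters only.

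In lung metastases, set against their own primary tumours, 3 of the 10 genes rose and 3 fell. Eln, Thbs2 and Vcan were higher, at 9.17, 2.51 and 2.28 times the primary level; Tnc, Fbln5 and Fbn1 were 3.37-fold, 5.30-fold and 1.91-fold lower. The call is an adjusted p under 0.05 in edgeR's quasi-likelihood test with the set as a block, Benjamini-Hochberg adjusted over all 18452 genes tested; of those, 7.34% rose and 6.44% fell. The median log2 fold change was -0.44 over the 10 genes, all of which were tested, and -0.00 over all genes tested. Mfap4, Postn, Thbs1 and Spp1 did not pass. When the metastases of each set were summed to 1 library, which leaves 6 against 6, Tnc was the 1 gene of the 10 past the threshold (adjusted p = 0.0114); Thbs2 and Vcan then had an adjusted p of 0.0584 and 0.062. With metastasis 1 of each set alone, Tnc was again the 1 past it (adjusted p = 0.0124). Neither the elastic fibre genes nor the matricellular genes moved as a block, since each group held members that rose and members that fell.

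**Figure D1:**
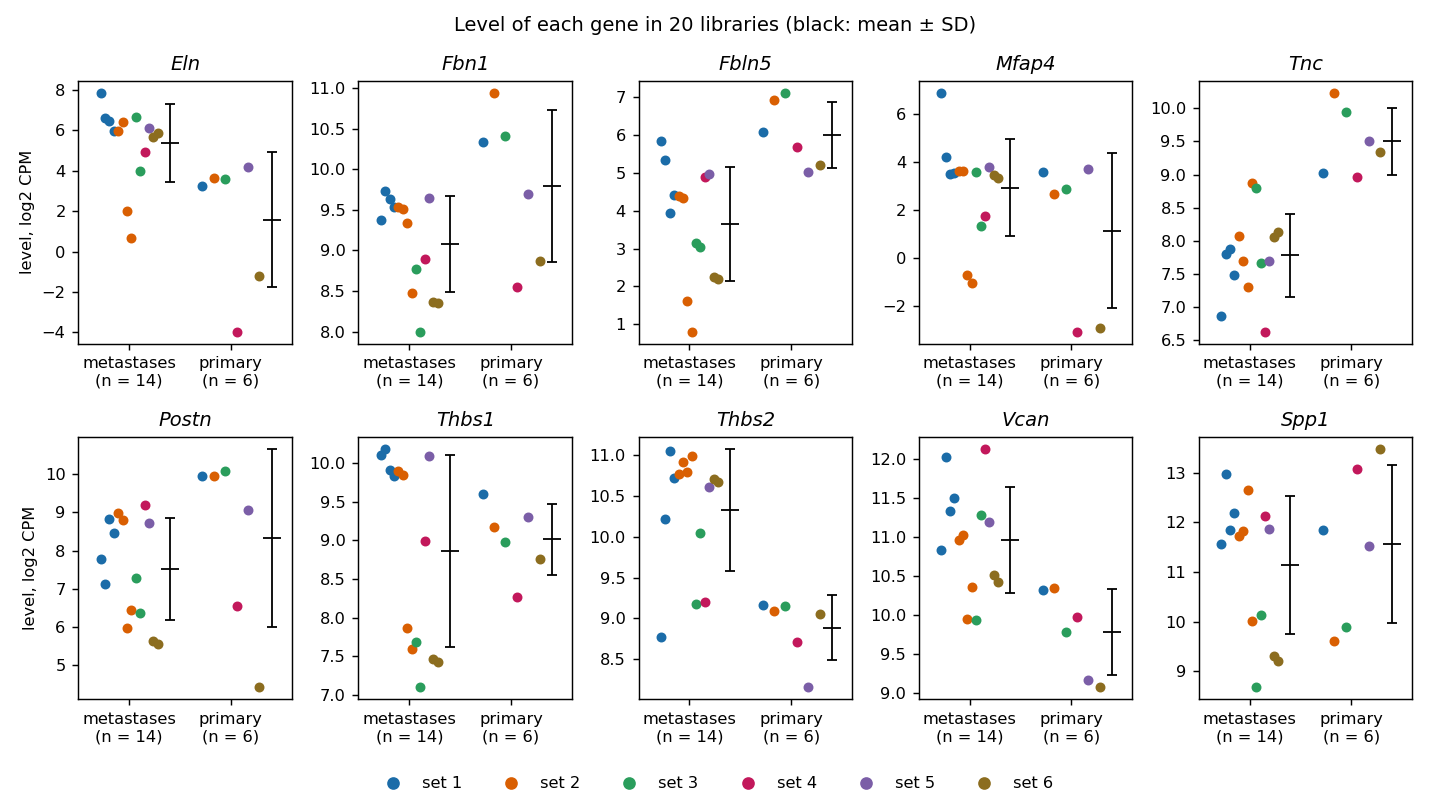
Level of each of the 10 genes (log2 CPM, vertical axis) in 14 metastases, left, and 6 primary tumours, right; points are libraries coloured by set and black marks are the mean ± SD. Tnc is the gene whose groups do not overlap, with metastases at 6.63 to 8.87 and primary tumours at 8.96 to 10.23, while Eln and Mfap4 show 2 low metastases and 2 low primary tumours.

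Eln encodes tropoelastin, the elastic core of the fibre. It had 1.51, 62.0 and 229 CPM in the lowest, median and highest metastasis, and 0, 10.6 and 17.8 CPM in the lowest, median and highest primary tumour. Of the metastases, 11 lay above every primary tumour, but metastases 2-3 (3.92 CPM) and 2-4 (1.51 CPM) lay below their own (12.3 CPM), so the groups overlapped. Eln averaged 67.6 ± 56.5 CPM in metastases (SD, n = 14) and 8.61 ± 7.09 CPM in primary tumours (SD, n = 6), a log2 fold change of 3.20 ± 1.02 (SE) with an edgeR adjusted p of 0.0481. All 6 sets had a positive mean difference, from 0.13 in set 2 to 6.96 in set 6 on the log2 scale, and set 4 more. In set 4 the metastasis had 1006 counts of Eln and the primary tumour had 0, at least 186-fold higher in CPM against a floor of 3 counts in that primary library. The call was near the threshold: it was lost in 17 of the 20 fits that left out 1 library, and kept only without metastasis 2-3, 2-4 or 3-2, with adjusted p between 0.026 and 0.107 and log2 fold changes between 2.72 and 3.95. Without sets 4 and 6, the log2 fold change was 2.30 with an adjusted p of 0.146. The call was also lost in limma voom (adjusted p = 0.0847) and without the low-count filter (adjusted p = 0.144). It was kept with RLE factors (edgeR adjusted p = 0.049) and in DESeq2 (log2 fold change 3.25, adjusted p = 0.000683). DESeq2 called 2310 genes higher, against 1354 in the main edgeR fit.

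Mfap4, a microfibril-associated glycoprotein that binds elastin, ran beside Eln among metastases. It had 0.422, 11.3 and 116 CPM in the lowest, median and highest metastasis, and 0.0535, 6.68 and 12.7 CPM in the lowest, median and highest primary tumour. Metastasis 1-1 held 116 CPM and the next metastasis, 1-2, held 18.1 CPM, while 2-3 and 2-4 were again the 2 lowest. The groups overlapped and the difference did not pass (log2 fold change 1.30 ± 0.991 SE, edgeR adjusted p = 0.419), with 4 sets up and 2 down. Metastases of sets 4 and 6 held 111 and 677 counts of Mfap4, against 1 and 2 in their primary tumours; the ratios in CPM were 61.6 (exact 95% interval 10.8 to 2450) and 154 (42.6 to 1280), intervals that cover counting error only. Mfap4 overlaps Mapk7, which lies on the other strand and held 11613 counts against 8653 for Mfap4, and with the strand setting of the counting unknown their reads may not be fully separated.

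Both genes varied among metastases with lung mesenchyme markers, and also with those of endothelium, lung epithelium, and smooth muscle and pericyte. The mean log2 CPM of 10 lung mesenchyme markers is called an index here. It ran from 0.45 to 5.12 in metastases and from -1.62 to 1.02 in primary tumours. The summed level of the 10 markers ran from 51.2 to 874 CPM in metastases and from 30.7 to 189 CPM in primary tumours. Of the 10, 4 rose (Tcf21, Tbx4, Tbx5 and Inmt) and none fell, where 7.34% of all genes tested rose and 6.44% fell. Tcf21, a transcription factor of lung mesenchyme, had no count in 5 of 6 primary tumours. Over the 14 metastases, the index had a Pearson r of 0.91 with Eln (Spearman's rho 0.76) and 0.97 with Mfap4 (rho 0.88); that of 10 endothelium markers had an r of 0.78 with Eln (rho 0.80) and 0.89 with Mfap4 (rho 0.93). Of those 10, 1 rose (Car4) and none fell, near the 7.34% and 6.44% of all genes tested. Their summed levels were 161 to 2724 CPM in metastases and 2.57 to 635 CPM in primary tumours. The lung epithelium index had an r of 0.85 with Eln (rho 0.63) and 0.87 with Mfap4 (rho 0.84). For smooth muscle and pericyte markers, r was 0.57 with Eln (rho 0.78) and 0.64 with Mfap4 (rho 0.82). Fbln5, which was lower in metastases, had an r of 0.80 with lung mesenchyme (rho 0.74) and 0.81 with lung epithelium (rho 0.77). The correlations are descriptions: the points share library, depth and tissue content, and metastases of 1 set share a tumour of origin. With lung mesenchyme as the covariate, an alternative chosen after seeing the data, the log2 fold change turned to -1.45 for Eln (adjusted p = 0.275) and to -3.40 for Mfap4 (adjusted p = 0.0132). With the lung epithelium index instead, it was -1.03 for Eln (adjusted p = 0.737) and -3.42 for Mfap4 (adjusted p = 0.153). Other indices moved it the other way: Mfap4 passed as higher with fibroblast (2.63, adjusted p = 0.0332) and with skeletal muscle (3.75, adjusted p = 0.047) as the covariate, and Eln had 4.76 (adjusted p = 0.000587) and 5.09 (adjusted p = 0.0123) with them. With the macrophage index, Eln had 1.91 (adjusted p = 0.0632) and Mfap4 0.14 (adjusted p = 0.909). These indices differ between the groups by themselves, so such fits separate tissue content and group only in part, and the part of lung tissue in the 2 differences was not otherwise tested. In bulk tissue, fewer cells of a type and less RNA per cell cannot be told apart.

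**Figure D2:**
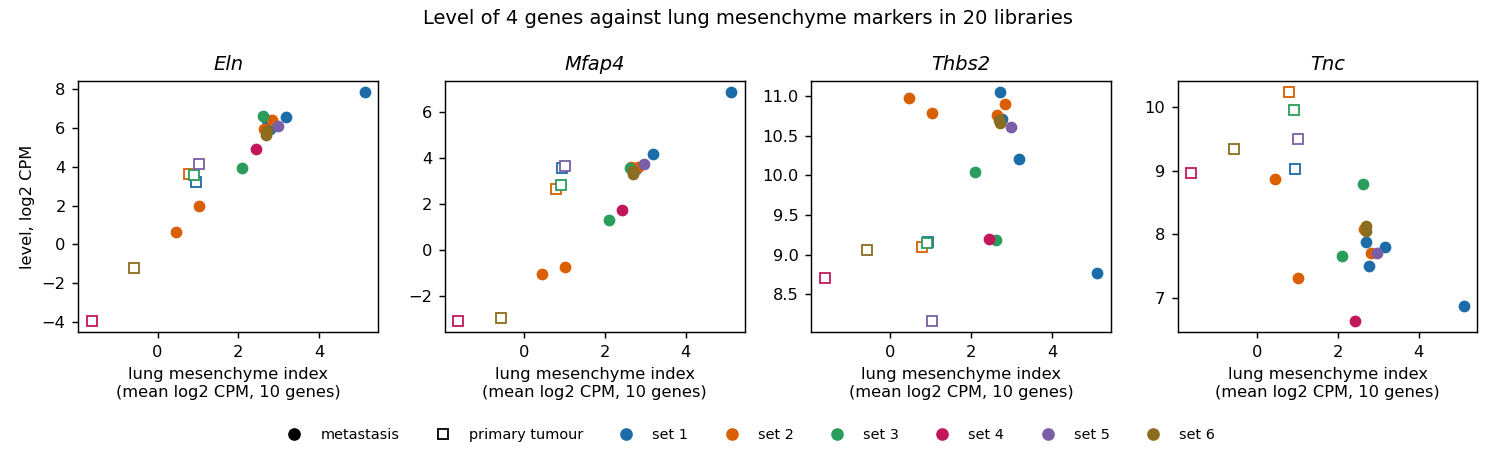
Level of Eln, Mfap4, Thbs2 and Tnc (log2 CPM, vertical axes) against the lung mesenchyme index (mean log2 CPM of 10 markers, horizontal axes) in 14 metastases, filled circles, and 6 primary tumours, open squares, coloured by set. Eln and Mfap4 climb with the index, while the Thbs2 level of the metastasis with the highest index, at 5.12, is the lowest of the 14.

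Fbln5 encodes fibulin-5, which tethers tropoelastin and lysyl oxidases to microfibrils. It had 1.69, 17.5 and 57.0 CPM in the lowest, median and highest metastasis, and 32.2, 58.7 and 137 CPM in the lowest, median and highest primary tumour. All 14 metastases lay below their own primary tumour and 12 below every primary tumour; metastases 1-1 and 1-2 overlapped the primary range. Fbln5 averaged 19.0 ± 16.1 CPM in metastases (SD, n = 14) and 73.9 ± 44.3 CPM in primary tumours (SD, n = 6), and fell by 2.41 ± 0.552 (SE) on the log2 scale (edgeR adjusted p = 0.0103). All 6 sets were down, by -4.13 in set 2 and -4.01 in set 3 but only -0.06 in set 5. Leaving out primary tumour 2, with 120 CPM, ended the call (log2 fold change -2.04, adjusted p = 0.0669). With lung epithelium as the covariate, the fall on the log2 scale was larger, at -5.61 (adjusted p = 0.00252). The call held with each marker index tried as a covariate. It was lost with metastases summed (-1.99, adjusted p = 0.156) and with metastasis 1 of each set alone (-1.72, adjusted p = 0.186). Eln and Fbln5 differed in opposite directions between the group means. Yet among the 14 metastases their levels ran together (Pearson r 0.77, Spearman's rho 0.67, libraries sharing depth and tissue content). Metastases 2-3 and 2-4 were the lowest of the 14 for both genes.

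Fbn1 encodes fibrillin-1, the main rod of the microfibril and a store for latent TGF-beta. It had 256, 653 and 848 CPM in the lowest, median and highest metastasis, and 374, 1055 and 1963 CPM in the lowest, median and highest primary tumour. In all, 13 of 14 metastases lay below their own primary tumour, but the groups overlapped, with 4 metastases below every primary tumour. Fbn1 averaged 582 ± 209 CPM in metastases (SD, n = 14) and 1047 ± 606 CPM in primary tumours (SD, n = 6), and fell by 0.93 ± 0.245 (SE) on the log2 scale (edgeR adjusted p = 0.0203). The drop was -1.72 in set 2 and -2.03 in set 3, against -0.04 in set 5 and a positive 0.35 in set 4. The call was lost without primary tumour 2 (log2 fold change -0.71, adjusted p = 0.114) or primary tumour 3 (log2 fold change -0.71, adjusted p = 0.0664), and with the skeletal muscle index as a covariate (log2 fold change -0.67, adjusted p = 0.103). Without the block the log2 fold change was -0.85 with an adjusted p of 0.0727. Primary tumours 2 and 3 were the highest for Fbn1 and Fbln5 and had skeletal muscle indices of 8.21 and 8.31; that index ran from -0.54 to 5.67 in metastases and from -2.54 to 8.31 in primary tumours, while primary tumour 5, at 8.30, had the lowest Fbln5 of the 6 and 824 CPM of Fbn1. Fbln5 kept its call with that index as a covariate (log2 fold change -2.58, adjusted p = 0.0161). Primary tumours 2 and 3 also had the highest fibroblast indices of all libraries, 7.01 and 7.11. With the fibroblast index as a covariate, chosen after seeing the data, Fbn1 kept its call (-0.75, edgeR adjusted p = 0.00221). Among metastases Fbn1 had a Pearson r of 0.95 with fibroblast (rho 0.82) and -0.07 with skeletal muscle (rho -0.16), libraries sharing depth and tissue content.

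Tnc encodes tenascin-C, a matricellular glycoprotein of wounds and tumour stroma, and had the smallest p of the 10 genes. It had 98.7, 215 and 467 CPM in the lowest, median and highest metastasis, and 499, 685 and 1198 CPM in the lowest, median and highest primary tumour. The groups did not overlap: the highest metastasis, 2-4, lay below the lowest primary tumour, 4. Among all genes tested, 0.412% had all metastases below all primary tumours and 1.39% lacked overlap in either direction. Tnc averaged 239 ± 106 CPM in metastases (SD, n = 14) and 763 ± 278 CPM in primary tumours (SD, n = 6), and fell by 1.75 ± 0.230 (SE) on the log2 scale (edgeR adjusted p = 0.000619). The 6 set means lay close together, from -2.34 in set 4 to -1.25 in set 6, with a mean of -1.81 ± 0.42 (SD, n = 6). The call held in all 20 fits without 1 library, with adjusted p from 0.000447 to 0.00603 and log2 fold changes from -1.85 to -1.65. It was lost with lung epithelium as the covariate (log2 fold change -1.20, adjusted p = 0.0941) and in none of the other alternatives run.

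Thbs2 encodes thrombospondin-2, a trimeric protein that binds CD47 and CD36 and restrains blood vessel growth. It had 438, 1646 and 2114 CPM in the lowest, median and highest metastasis, and 286, 539 and 571 CPM in the lowest, median and highest primary tumour. Of 14 metastases, 13 lay above every primary tumour; the exception was 1-1, the metastasis with the highest lung epithelium and lung mesenchyme indices. Thbs2 averaged 1424 ± 558 CPM in metastases (SD, n = 14) and 487 ± 113 CPM in primary tumours (SD, n = 6), a log2 fold change of 1.33 ± 0.309 (SE) with an edgeR adjusted p of 0.0111. All 6 sets were up, from 0.46 in set 3 to 2.45 in set 5. The call held in all 20 fits without 1 library (adjusted p 0.00287 to 0.0424), without sets 4 and 6 (adjusted p = 0.0375), and with each marker index tried as a covariate, where log2 fold changes ran from 1.15 with skeletal muscle to 2.05 with lung mesenchyme. It was lost with metastases summed (1.39, adjusted p = 0.0584) and with metastasis 1 of each set alone (0.99, adjusted p = 0.227). Among metastases Thbs2 had a Pearson r of -0.52 with the lung mesenchyme index (Spearman's rho -0.24, n = 14, libraries sharing depth and tissue content).

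Thbs1 encodes thrombospondin-1, the closest relative of Thbs2 and an activator of latent TGF-beta. It had 137, 713 and 1168 CPM in the lowest, median and highest metastasis, and 308, 543 and 778 CPM in the lowest, median and highest primary tumour. Metastases fell into separate ranges: the 4 of set 1, 2-1, 2-2 and 5-1 lay between 917 and 1168 CPM, above every primary tumour, 4-1 lay at 510 CPM, and 2-3, 2-4 and those of sets 3 and 6 lay between 137 and 234 CPM, below every primary tumour. The mean difference did not pass (log2 fold change -0.28 ± 0.374 SE, edgeR adjusted p = 0.668), with 3 sets up and 3 down. The same 7 libraries at the top had macrophage indices of 5.70 to 6.57, and those at the bottom had 3.47 to 4.16. Metastasis 4-1 had 4.94. Indices of fibroblast, endothelium, and smooth muscle and pericyte markers also lay higher in all 7 than in any library at the bottom. Among metastases, Thbs1 had a Pearson r of 0.97 with macrophage (Spearman's rho 0.81) and 0.92 with fibroblast (rho 0.88). It had 0.76 with endothelium (rho 0.84) and 0.74 with smooth muscle and pericyte (rho 0.85), libraries sharing depth and tissue content. In primary tumours the macrophage index ran from -0.68 to 5.80. With the macrophage index as a covariate the log2 fold change of Thbs1 was -0.65 (adjusted p = 0.252). With lung epithelium as the covariate Thbs1 passed as lower, at -2.03 (adjusted p = 0.0285). Of the 14 macrophage markers, 3 rose (Marco and Chil3, both markers of alveolar macrophages, and Mertk) and none fell, where 7.34% of all genes tested rose and 6.44% fell. Fold changes were negative for 10 of the 14, and the median log2 fold change was -0.43. Summed levels ran from 453 to 2419 CPM in metastases and from 186 to 3629 CPM in primary tumours.

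Vcan encodes versican, a large chondroitin sulphate proteoglycan that binds hyaluronan and loosens the matrix. It had 980, 2050 and 4502 CPM in the lowest, median and highest metastasis, and 540, 950 and 1307 CPM in the lowest, median and highest primary tumour. Of 14 metastases, 12 were higher than every primary tumour; 2-3 and 3-1 did not, and 2-3 was the 1 metastasis below its own primary tumour. Vcan averaged 2222 ± 1079 CPM in metastases (SD, n = 14) and 935 ± 332 CPM in primary tumours (SD, n = 6), a log2 fold change of 1.19 ± 0.278 (SE) with an edgeR adjusted p of 0.0113. All 6 sets were up, from 0.23 in set 2 to 2.15 in set 4, and the call held in all 20 fits without 1 library (adjusted p 0.00675 to 0.0371). It was lost without sets 4 and 6 (log2 fold change 0.98, adjusted p = 0.0855), with the lung epithelium index (0.57, adjusted p = 0.487) and with the lung mesenchyme index (0.75, adjusted p = 0.298). Among metastases Vcan was lower where skeletal muscle markers were higher, with a Pearson r of -0.83 and Spearman's rho of -0.85 with that index (n = 14, libraries sharing depth and tissue content). With the skeletal muscle index as a covariate the call held (log2 fold change 1.09, edgeR adjusted p = 0.0422). A transcript antisense to Vcan, Gm4117, held 4549 counts against 1160105 for Vcan.

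Postn encodes periostin, a matricellular protein of fibroblasts that supports collagen cross-linking. It had 46.7, 187 and 588 CPM in the lowest, median and highest metastasis, and 21.4, 762 and 1078 CPM in the lowest, median and highest primary tumour. Primary tumours 4 and 6 held 93.4 and 21.4 CPM, against 531 to 1078 CPM in the other 4, and their metastases were higher than them while those of the other 4 sets were lower than their own. The difference over all sets did not pass (log2 fold change -1.14 ± 0.595 SE, edgeR adjusted p = 0.219). Without sets 4 and 6, an alternative chosen after seeing the data, it did (log2 fold change -1.93, adjusted p = 0.0359). In the same 2 primary tumours the fibroblast index was 0.37 and 3.21 and that of smooth muscle and pericyte markers -1.33 and -0.00. Their macrophage (-0.68 and 0.45), endothelium (-2.52 and -1.28) and skeletal muscle (-1.18 and -2.54) indices also lay below those of the other 4. No smooth muscle or pericyte marker of 13 passed, with summed levels of 142 to 1472 CPM in metastases and 19.6 to 1831 CPM in primary tumours. Of 9 fibroblast markers, 2 fell (Pdgfra and Lum) and none rose, where 6.44% of all genes tested fell and 7.34% rose. Fold changes were negative for 5 of these 9 and positive for 4, with a median log2 fold change of -0.00. The summed level of the fibroblast markers ran from 1121 to 4773 CPM in metastases and from 223 to 4193 CPM in primary tumours. With the fibroblast index as a covariate the log2 fold change of Postn was -0.54 (adjusted p = 0.278), and with skeletal muscle it was 0.03 (adjusted p = 0.977). Postn passed as lower with macrophage (-1.91, adjusted p = 0.000205) and with lung mesenchyme (-3.36, adjusted p = 0.0245) as the covariate.

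Spp1 encodes osteopontin, a cytokine-like matrix protein secreted by macrophages and many tumour cells, and was the most abundant of the 10 per kilobase of exon in both groups. It had 411, 3493 and 8093 CPM in the lowest, median and highest metastasis, and 785, 3312 and 11480 CPM in the lowest, median and highest primary tumour. The groups overlapped over most of their range. The difference did not pass (log2 fold change -0.59 ± 0.691 SE, edgeR adjusted p = 0.618), with 3 sets up and 3 down, from 1.94 in set 2 to -4.23 in set 6. Primary tumours 6 and 4, at 11480 and 8598 CPM, were the 2 highest of all 20 libraries. Without primary tumour 6 the log2 fold change was 0.33 (adjusted p = 0.736), and without sets 4 and 6 it was 0.57 (adjusted p = 0.542).

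**Figure D3:**
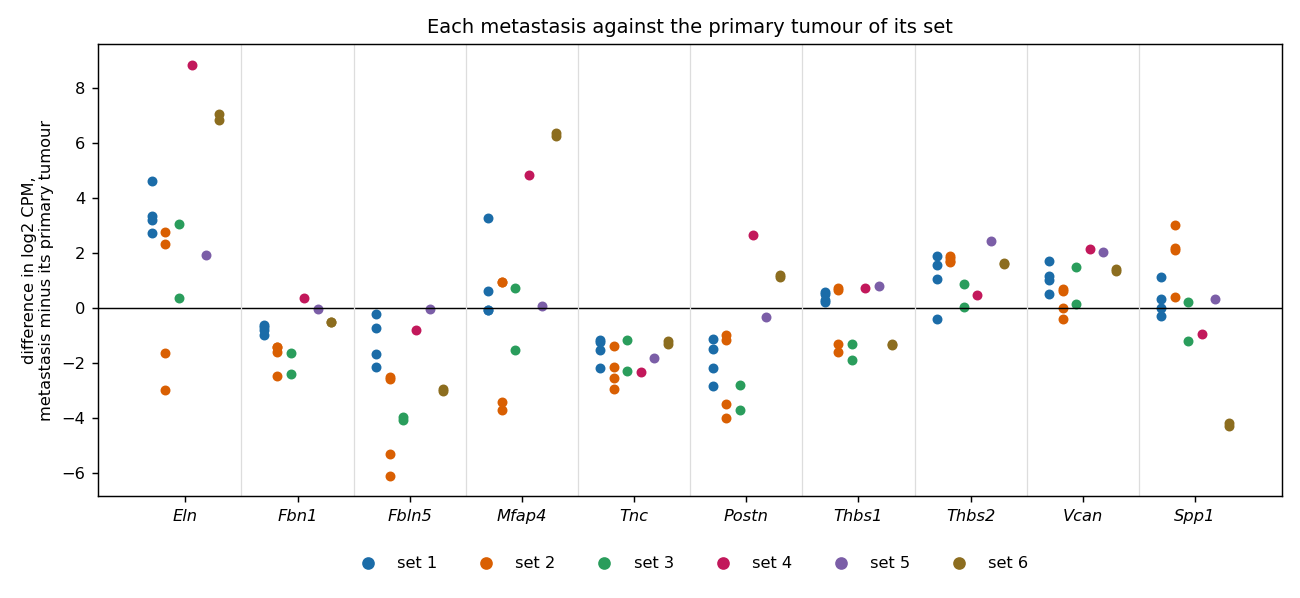
Difference in log2 CPM between each of 14 metastases and the primary tumour of its set (vertical axis) for the 10 genes (horizontal axis), coloured by set; 0 means the level of its own primary tumour. All 14 points of Tnc and of Fbln5 lie below 0, the points of Postn lie on both sides of 0 by set, and those of Thbs1 and Spp1 on both sides also within sets; the Eln point of set 4 rests on a primary library with 0 counts.

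Whether the difference varied between sets was tested as an interaction of set and tissue, in which each primary tumour is 1 library without a spread of its own. None of the 10 genes passed in edgeR, where 4.1% of 18452 genes did. The 2 smallest p of the 10 in this edgeR test were those of Spp1 (0.00886, adjusted p = 0.0986) and Fbn1 (0.0275, adjusted p = 0.168). Spp1 passed without metastasis 2-4 (adjusted p = 0.0355), and Spp1 and Fbn1 passed without metastasis 3-1 (adjusted p = 0.046 and 0.0473), a fit that called 3725 of 18264 genes. Tnc gave the highest p of the 10 in this test, 0.848.

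Differences between sets among the 12 metastases of sets 1, 2, 3 and 6 were tested without the primary tumours. None of the 10 genes passed in edgeR, where 0.321% of 19919 genes did. The 3 smallest p of the 10 in this edgeR test were those of Thbs1 (0.0027, adjusted p = 0.0694), Spp1 (0.00278, adjusted p = 0.0701) and Fbn1 (0.00563, adjusted p = 0.0815). All of these 3 passed without metastasis 2-4 (adjusted p 0.0292 to 0.0321), a fit that called 1186 of 19713 genes, and without metastasis 3-1 (adjusted p 0.0211 to 0.0389), a fit that called 5602 of 21028 genes.

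The order of levels per kilobase of exon differed between the groups. In metastases Spp1 was first, with a median of 2120 CPM per kilobase, followed by Thbs2 (235) and Vcan (142); Tnc (27.7) and Postn (21.4) came after Fbn1 (53.9), and Eln (7.66), Mfap4 (5.87) and Fbln5 (2.54) were the lowest. In primary tumours Spp1 was again first at 2010 CPM per kilobase, and Thbs1, Tnc, Postn, Fbn1, Thbs2 and Vcan lay together between 65.7 and 89.5, with Fbln5 (8.50), Mfap4 (3.48) and Eln (1.31) last. Spp1 exceeded the next gene in all 14 metastases and all 6 primary tumours. Tnc exceeded Postn, its neighbour, in 7 of 14 metastases, and Thbs2 exceeded Vcan in 3 of 6 primary tumours. Every neighbouring pair in the metastases had overlapping ranges. Eln and Fbln5 held opposite ends of the 3 scarce genes in metastases and in primary tumours.

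**Figure D4:**
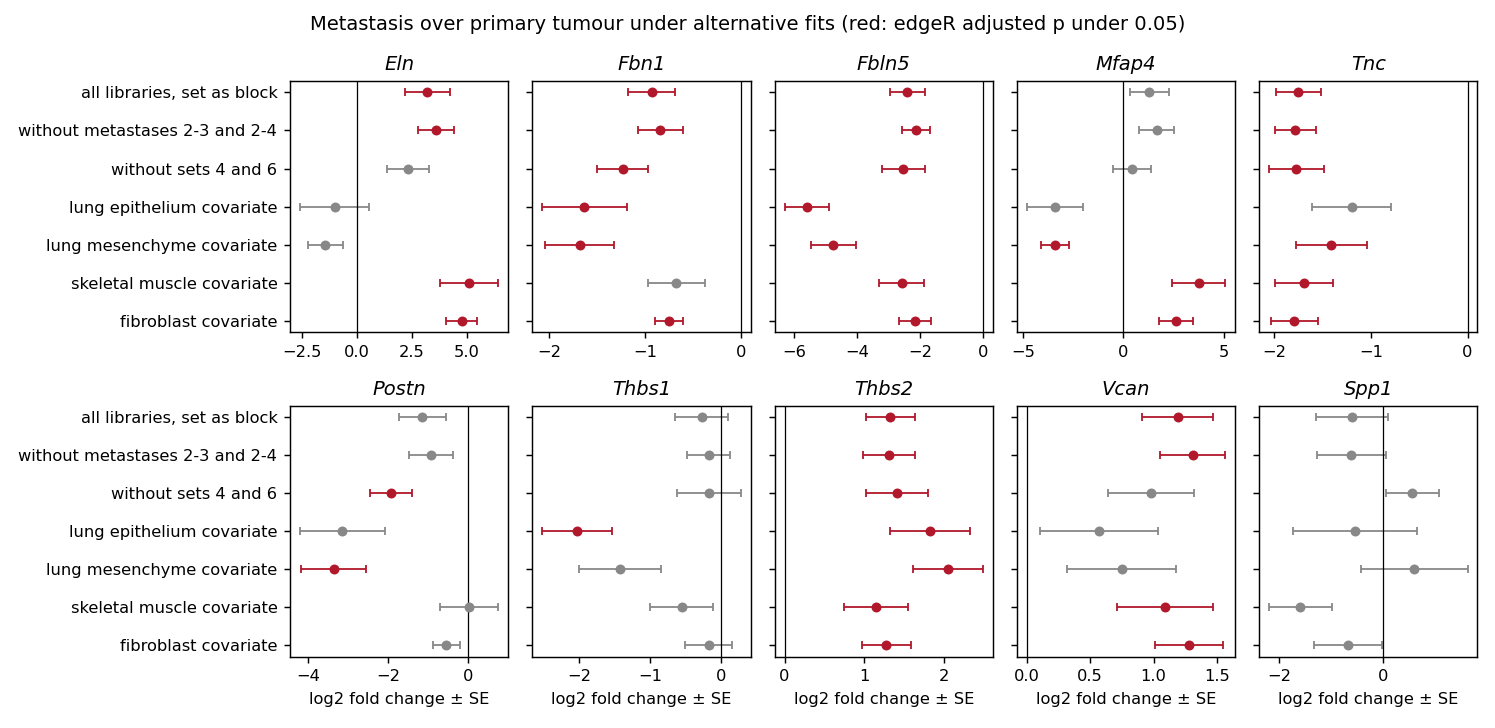
Log2 fold change of metastases over primary tumours ± SE (horizontal axes) for the 10 genes under 7 edgeR fits (rows), red where the adjusted p was under 0.05. Thbs2 and Fbln5 are red in every row. Eln and Mfap4 cross 0 when a lung index is a covariate.

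Among other genes of elastic fibres, the count that passed was near the share over all genes. Of 18 tested members of a list of 19 other elastic fibre genes (fibrillins, fibulins, EMILINs, latent TGF-beta binding proteins and lysyl oxidases), 1 fell and none rose, where 6.44% of all genes tested fell and 7.34% rose; the median log2 fold change was -0.84, and 15 of the 18 were negative, against 9229 of 18452 genes tested. The 1 was Ltbp1, which anchors latent TGF-beta to fibrillin: it averaged 477 ± 169 CPM in metastases (SD, n = 14) and 875 ± 275 CPM in primary tumours (SD, n = 6), a log2 fold change of -0.99 ± 0.272 (SE) with an edgeR adjusted p of 0.0244. Fbn1 and Ltbp1, partners in the microfibril, were both lower. The 3 genes of the list with positive fold changes did not pass in edgeR. They were Ltbp3 (0.91, adjusted p = 0.0684), Emilin1 (1.08, adjusted p = 0.16) and Fbln1 (1.69, adjusted p = 0.146).

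Of 17 tested members of a list of 20 other matricellular genes, 1 rose and 1 fell, near the 7.34% and 6.44% of all genes tested, with a median log2 fold change of -0.24. Smoc2, a SPARC-related calcium-binding protein, averaged 89.0 ± 47.3 CPM in metastases (SD, n = 14) and 14.9 ± 11.1 CPM in primary tumours (SD, n = 6), a log2 fold change of 2.54 ± 0.616 (SE) with an edgeR adjusted p of 0.0135 and all 6 sets up. Comp, a thrombospondin of cartilage and tendon, averaged 0.602 ± 0.509 CPM in metastases (SD, n = 14) and 4.69 ± 4.86 CPM in primary tumours (SD, n = 6), a log2 fold change of -2.60 ± 0.668 (SE) with an adjusted p of 0.018. Of the 5 thrombospondin genes, Thbs2 was called higher and Comp lower, and Thbs1, Thbs3 (log2 fold change 0.10, adjusted p = 0.921) and Thbs4 (-2.26, adjusted p = 0.167) did not pass.

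The genes that handle versican and hyaluronan gave no call. Of 14 tested members of a list of 16 genes that make or bind hyaluronan or cleave versican, none rose or fell, where 7.34% and 6.44% of all genes tested did. Their median log2 fold change was 0.59, and 10 of the 14 were positive, among them Has2, another hyaluronan synthase (0.61, adjusted p = 0.206), and Adamts9, another protease of versican (0.55, adjusted p = 0.191), each up in 5 of 6 sets; these 2 were chosen after their values were seen. The 2 of smallest p were Has1, a hyaluronan synthase (log2 fold change -2.33, adjusted p = 0.0706), and Adamts5, a versican-cleaving protease (-1.04, adjusted p = 0.0782, all 6 sets down). Has1 averaged 5.25 CPM in metastases and 6.12 CPM in primary tumours, with 2 sets up and 4 down. Adamts5 averaged 17.5 CPM in metastases and 32.7 CPM in primary tumours.

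Among 14 receptors of these proteins, all tested, 1 fell and none rose, near the 6.44% and 7.34% of all genes tested, with a median log2 fold change of 0.38. Itgav, the integrin subunit through which osteopontin, periostin, tenascin-C and fibrillin-1 are bound, averaged 476 ± 149 CPM in metastases (SD, n = 14) and 821 ± 276 CPM in primary tumours (SD, n = 6), a log2 fold change of -0.73 ± 0.138 (SE) with an edgeR adjusted p of 0.00402 and all 6 sets down. Of 8 TGF-beta ligands and receptors, all tested, 1 rose and none fell, where 7.34% and 6.44% of all genes tested did, with a median log2 fold change of -0.00. Tgfb2 averaged 14.9 ± 3.76 CPM in metastases (SD, n = 14) and 7.99 ± 1.96 CPM in primary tumours (SD, n = 6), a log2 fold change of 0.94 ± 0.224 (SE) with an adjusted p of 0.0124 and all 6 sets up.

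Among metastases the 10 genes followed different partners. The genes most like each were ranked by Pearson r of log2 CPM over the 14 metastases among 10849 tested genes, as a description, since the libraries share depth, tissue content and tumours of origin. Eln was most like Mfap4 (0.96), Svep1 (0.94) and Cyp4b1 (0.93), and Mfap4 most like Scnn1a (0.97), Cyp4b1 (0.96) and Eln (0.96). Fbn1 was most like Vps8 (0.99), Ripk3 (0.98) and Sparc (0.98), and Fbln5 most like Pik3cb (0.98), Car2 (0.98) and Lyve1 (0.97). Sparc, a collagen-binding matricellular protein, was the 1 gene of these that stood in another list described here.

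For Thbs1 the most like were Gfpt2, C5ar1 and Bgn (0.99 each), over libraries that lay in the separate ranges given above, and for Postn they were Gmds, Cx3cr1 and Dhrs9 (0.97 each). Thbs2 was most like Pde10a (0.97), Med18 (0.96) and Nup107 (0.96), and Vcan most like Ralgps2 (0.96), Trim12c (0.95) and Ppp3ca (0.95). Spp1 was most like Mcmbp (0.96), Nipal1 (0.96) and Ss18l2 (0.95). Tnc had the lowest best values, with Ada (0.91), Otulin (0.86) and Tert (0.86). Thbs1 and Thbs2, close relatives, had a Pearson r of -0.02 with each other, while Tnc and Spp1 ran in opposite directions at -0.64 (Spearman's rho -0.63).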

How the data were processed

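Per the labels' protocols, a Direct-zol kit was used for RNA and libraries were stranded, after depletion of ribosomal RNA by Ribo-Zero Gold. The submitters' processing notes name Trimmomatic 0.36, STAR (version string 5.5.4b, as given), HTSeq and the build mm10. Which annotation release and which strand setting HTSeq used is not given in the sources used here. The authors deposited raw counts as whole numbers, not normalized, for 51826 genes in 20 libraries. Identifiers were matched to symbols in GENCODE M21 (51633 matched; 193 did not), whose GRCm38 models gave exon lengths.

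From these counts, edgeR 4.0.16 (R 4.3.3) kept genes by filterByExpr at a minimum count of 10, computed TMM factors (0.712 for primary tumour 4, 0.932 to 1.10 for the others) and ran its robust quasi-likelihood test with the set as a block, which left 13 residual degrees of freedom; the interaction test and the test among metastases left 8 each. Adjusted p is Benjamini-Hochberg adjusted over all genes tested, with a threshold of 0.05. CPM use totals times TMM factors, and log2 CPM a prior count of 2. The scripts were tested on simulated data.

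The pairing comes from the sample titles and the design text. Over the 1000 most variable genes, the departure of a primary tumour from its group mean correlated with that of its own metastases by -0.178 to 0.348 depending on the set, 0.0822 on average.

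The 10 genes and all gene lists were chosen with earlier results of these data known. All 10 are named whatever their result. In each list of related genes every called gene is named, up to 6 by smallest p, or the 2 of smallest p where none passed. The 3 genes most like each member come from tested genes without a provisional symbol whose log2 CPM averaged 2 or more.

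Alternatives were DESeq2 1.42.0, limma 3.58.1 with voom, RLE factors, no filter, no replicate block, metastases summed or metastasis 1 alone per set, marker indices as covariates, and each library left out. Leaving out sets 4 and 6, leaving out metastases 2-3 and 2-4, and the lung mesenchyme and fibroblast covariates were chosen after seeing the data. Depth limits Eln and Mfap4 in primary tumours 4 and 6, where 3 counts equal 0.16 and 0.101 CPM.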

Additional observations from a re-analysis of the deposited data

How the results depend on the processing

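Of 34 alternatives per gene, the count of the 10 genes that rose (3) became 1 with the lung epithelium or the lung mesenchyme index as a covariate, 1 without sets 4 and 6, and 0 with metastases summed or with metastasis 1 of each set alone; it was 2 in limma voom, with no filter and with macrophage, and 4 with fibroblast or skeletal muscle. The count that fell (3) became 5 with the lung mesenchyme index and 1 with metastases summed or metastasis 1 alone; it was 4 with macrophage or without sets 4 and 6, and 2 with skeletal muscle. With no replicate block, 3 rose and 2 fell. Leaving out 1 library gave 2 to 3 that rose and 1 to 3 that fell, the lowest without primary tumour 2. Genes whose difference varied between sets, 0, became 0 to 2, and those that differed between sets among metastases, 0, became 0 to 3, when 1 metastasis was left out.

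Over all genes, 1354 rose; the count was 2310 in DESeq2, 600 with lung epithelium, 660 with lung mesenchyme, 2394 with fibroblast and 2928 with skeletal muscle as covariates, 297 with metastases summed, 307 with metastasis 1 alone, 785 without sets 4 and 6, and 891 to 1903 with 1 library left out. Over all genes, 1189 fell; the same settings gave 1861, 447, 750, 1814, 2211, 63 and 108, then 1065 without sets 4 and 6 and 687 to 1695 with 1 library left out. With no replicate block 1221 rose and 1263 fell.

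Directions reversed for Eln with lung epithelium (-1.03) and lung mesenchyme (-1.45), for Mfap4 with the same (-3.42 and -3.40), for Postn with skeletal muscle (0.03), for Thbs1 with metastasis 1 alone (0.05), no replicate block (0.21) and without primary tumour 3 (0.02), and for Spp1 with lung mesenchyme (0.61), without primary tumour 6 (0.33) and without sets 4 and 6 (0.57). With 1 library left out, log2 fold changes ran from -0.50 to 0.02 for Thbs1 and from -1.11 to 0.33 for Spp1. The cause was not tested. RLE factors changed no call or direction of the 10 genes.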
